A study of Drosophila melanogaster with 6 samples.

Results

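The genes described here are the 10 members of the Epsilon glutathione S-transferase cluster, GstE1 to GstE10, measured by RNA-seq in the midgut of adult Drosophila melanogaster. They were found by matching the current symbols to the FlyBase identifiers of the count tables, which gave 10 of 15682 genes, and all 10 passed the filter on low counts. The samples were 3 libraries of female midguts and 3 of male midguts. All flies were virgin, 15 days old, of the white-eyed strain w1118 and kept at 29 °C, and each library came from 30 pooled midguts. No transgene or treatment is named for either sex, and nothing in the labels says whether the pools came from separate cultures, so the p-values here reflect variation among these pools only, and part of it may be technical.

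Glutathione S-transferases join the tripeptide glutathione to reactive, electron-poor compounds such as plant toxins, insecticides and aldehydes from oxidised lipids, which makes them soluble and ready for export. Insects have expanded the Delta and Epsilon classes, and the midgut, which meets dietary chemicals directly, is among the tissues where these enzymes act. In mosquitoes, Epsilon class enzymes are known for breaking down the insecticide DDT. The comparison asked how the transcript level of each member differs between the female and the male midgut.

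In the BDGP6 annotation the 10 genes lay within 13.2 kilobases of chromosome arm 2R, a span that also holds the annotated pseudogenes CR43687 and CR43688, in the order GstE10, GstE1, GstE2, GstE3, GstE4, GstE5, GstE6, GstE7, GstE8 and GstE9. GstE10 (FBgn0063499) lies on the minus strand and the other 9 on the plus strand. Annotated exon sequence ran from 734 bases in GstE5 to 1134 bases in GstE10, and 9 of the members have a single exon piece. GstE10 and GstE1 share 20 exon bases on opposite strands, and GstE9 shares 40 with the immune adaptor gene imd. The members are paralogs, so reads that match more than a single copy could shift values between them, and how such reads were counted is not given in the sources used here. The counts were made on build dm3, so no coordinates are given.

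Library totals were 23825935 to 38406746 counts, so a floor of 3 counts stood for 0.0781 to 0.124 CPM (counts scaled to library size with TMM factors), a limit that covers counting error only. The first principal component, with 47.3% of the variance, parted the sexes. The second, with 18.9%, set female replicate 2 and male replicate 3 apart from the other 4 libraries. These libraries also had the lowest summed level of 5 matched visceral muscle markers within their sex. That sum was 926, 342 and 614 CPM in female replicates 1 to 3 and 714, 948 and 482 CPM in male replicates 1 to 3. The enterocyte markers define the absorptive cells of the midgut. They summed to 2245 to 2470 CPM in females and 2328 to 2550 CPM in males, mostly from Myo61F. None of the 5 was called by edgeR, DESeq2 or limma-voom. Only Myo31DF had an unadjusted edgeR p under 0.05 (adjusted p = 0.186). It stood at 512, 480 and 563 CPM in females, against 649, 698 and 628 CPM in males. The libraries parted the other way for pdm2, with 8.7, 9.25 and 9.21 CPM in females, against 7.96, 7.68 and 5.73 CPM in males. Fold changes are log2 female over male from edgeR's quasi-likelihood test over 8941 genes, and a gene counted as called at a Benjamini-Hochberg adjusted p under 0.05.

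Of the 10 members, 6 were lower in females and 0 were higher, and 4 did not pass the threshold. In the same fit 5.53% of all genes tested were lower in females and 3.87% were higher. GstE2, GstE4 and GstE10 met the low-count filter (0.322 CPM in 3 libraries) in the male libraries but not in the female libraries alone, which favours a lower female value, so they are left out of the next counts. The other 7 members had a mean of at least 10 CPM, and their median log2 fold change was -0.88, against 0.00 over the 5626 tested genes of that level. In these 7 the 3 female libraries lay below the 3 male libraries in CPM, as they did in 14.8% of those genes. With female replicate 2 and male replicate 3 left out together, 6 members were again lower in females, GstE3 and GstE5 to GstE9. In whole midguts, fewer cells of a type and less RNA per cell cannot be told apart.

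GstE3 (FBgn0063497) had the highest level per length of the cluster in both sexes. It stood at 246, 304 and 254 CPM in female replicates 1 to 3, against 457, 448 and 538 CPM in male replicates 1 to 3. The highest female library was thus well below the lowest male library. The female mean was 268 ± 31.4 CPM and the male mean 481 ± 49.8 CPM (SD, n = 3 each), a log2 fold change of -0.85 ± 0.15 (SE, edgeR adjusted p = 0.00537).

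GstE8 (FBgn0063492) had the largest fold change among the called members. Its level was 80.3, 113 and 88.2 CPM in the female libraries, against 251, 202 and 243 CPM in the male libraries. The female level was 0.405 of the male level by the fitted fold, with log2 -1.30 ± 0.16 (edgeR adjusted p = 0.0007). GstE7 (FBgn0063493), its neighbour upstream, stood at 63.2, 78.5 and 70.7 CPM in females, against 163, 124 and 186 CPM in males. Here male replicate 2 was the lowest male library, still above every female library, and the log2 fold change was -1.15 ± 0.17 (edgeR adjusted p = 0.00159).

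GstE6 (FBgn0063494) was the member with the tightest male values. It had 148, 214 and 168 CPM in the female libraries, against 382, 376 and 375 CPM in the male libraries. The spread was thus wider in females, with a coefficient of variation of 19.2% in females and 0.919% in males over 3 libraries each. The log2 fold change was -1.10 ± 0.16 (edgeR adjusted p = 0.00167).

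GstE9 (FBgn0063491), at the far end of the cluster next to imd, had 186, 253 and 194 CPM in females, against 381, 373 and 413 CPM in males. Female replicate 2 was again the highest female library, and no female library reached the male range. Its log2 fold change was -0.88 ± 0.16 (edgeR adjusted p = 0.00507). imd, whose exons overlap it on the opposite strand, had only 17.5 ± 1.2 CPM in females and 19.7 ± 1.35 CPM in males (SD, n = 3 each).

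GstE5 (FBgn0063495) was the least abundant of the called members. It stood at 35.5, 44 and 43.2 CPM in the female libraries, against 70.2, 63.1 and 72.8 CPM in the male libraries, with log2 -0.75 ± 0.14 (edgeR adjusted p = 0.00567). This was the smallest fold change among the 6 called members. Across them, females had 0.405 to 0.595 of the male level.

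GstE1 (FBgn0034335) was abundant but did not pass. It had 74, 82.2 and 64.3 CPM in the female libraries, against 108, 83.2 and 96 CPM in the male libraries. The groups did not overlap, but female replicate 2 and male replicate 2 lay next to each other. The female mean was 73.5 ± 8.93 CPM and the male mean 95.7 ± 12.4 CPM (SD, n = 3 each). Its log2 fold change was -0.38 ± 0.14 (edgeR unadjusted p = 0.0225). The edgeR adjusted p was 0.139, and the adjusted p was 0.0829 to 0.407 over the alternative settings.

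**Figure D1:**
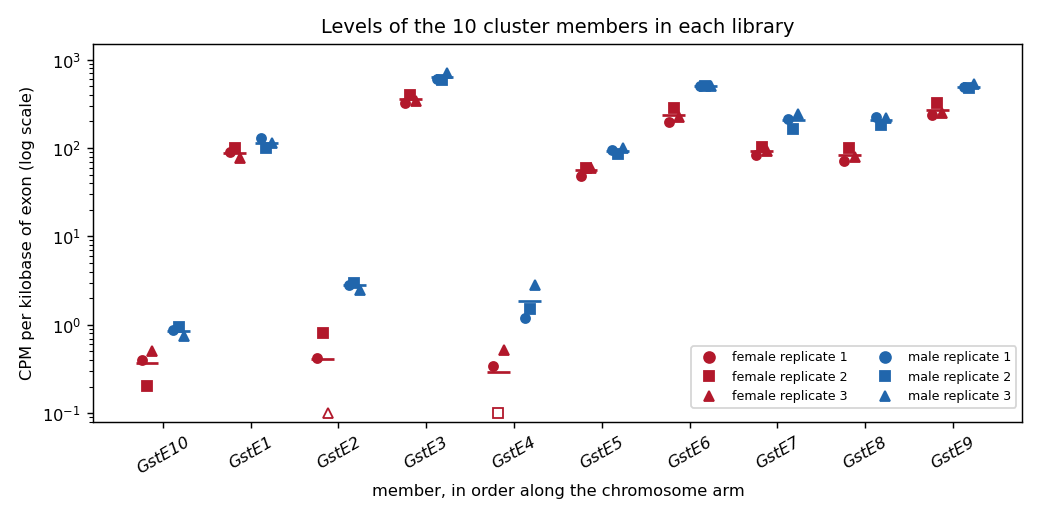
Level of each member in each library, as CPM per kilobase of exon on a log axis, with members in order along the chromosome arm; points are libraries, short lines are means of 3, and open points at the bottom are libraries with 0 counts. GstE2, GstE4 and GstE10 lie far below the other 7 members, and the female points lie below the male points in each of those 7.

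GstE2, GstE4 and GstE10 were the sparse members of the cluster. Together they held 86 counts in the 3 female libraries and 517 counts in the 3 male libraries. GstE2 (FBgn0063498) had 9, 22 and 0 counts in female replicates 1 to 3, against 79, 88 and 86 counts in male replicates 1 to 3. GstE4 (FBgn0063496) had 7, 0 and 13 counts in females, against 31, 42 and 92 counts in males, where male replicate 3 held more than the other male libraries. GstE10 (FBgn0063499) had 11, 7 and 17 counts in females, against 31, 35 and 33 counts in males.

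The female counts of GstE2 and GstE4 included a library at 0, and the fitted fold changes carried wide errors. For GstE2 the log2 value was -2.75 ± 0.83 (edgeR adjusted p = 0.0659) and for GstE4 -2.67 ± 0.91 (edgeR adjusted p = 0.103). GstE10 had -1.21 ± 0.63 (edgeR adjusted p = 0.318, and 0.252 to 0.616 over the alternative settings). DESeq2 called GstE2 and GstE4 lower in females (adjusted p = 0.00304 and 0.0146), where it called 7.35% of all genes tested in that direction. Both genes met the low-count filter in the male libraries but not in the female libraries alone, which favours such a call. The share over all genes is not matched for that. The adjusted p over the alternatives ran from 0.00304 to 0.191 for GstE2 and from 0.0146 to 0.289 for GstE4. GstE2 also passed in edgeR without female replicate 2 (adjusted p = 0.0402) or female replicate 3 (0.038). The annotated pseudogene CR43687, which lies within the span of the cluster, was as sparse. It had 0, 7 and 11 counts in females and 18, 38 and 32 counts in males (edgeR adjusted p = 0.232). The other pseudogene in the span, CR43688, had too few counts to be tested.

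**Figure D2:**
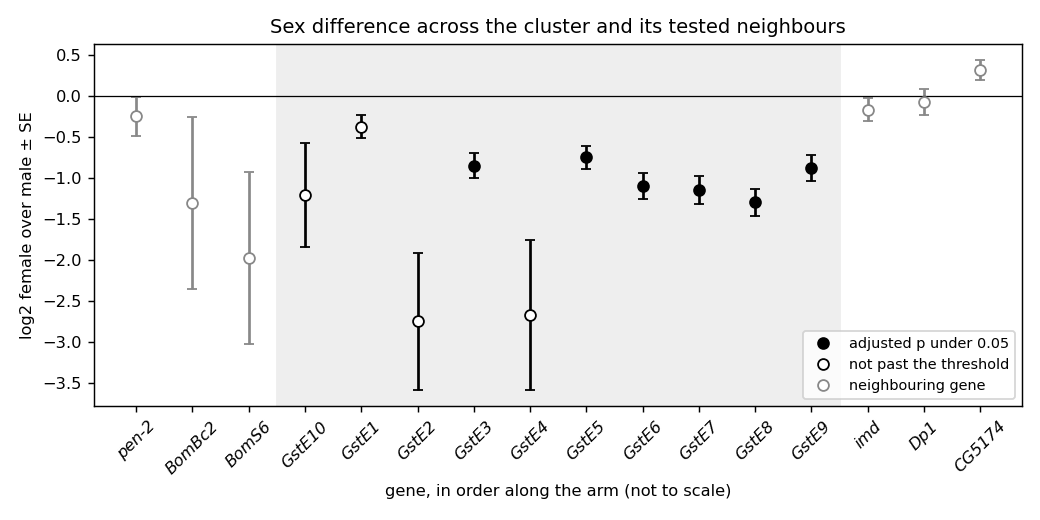
Log2 fold change, female over male, with its standard error for the members (shaded) and the 3 nearest tested protein-coding genes on each side, in order along the arm; filled points passed an adjusted p under 0.05. The 6 filled points run from -1.30 to -0.75, and none of the 6 neighbours is filled.

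None of the 6 flanking genes was called by edgeR, DESeq2 or limma-voom, and 1, CG5174, had an unadjusted edgeR p under 0.05. On the GstE9 side the nearest tested genes were imd, Dp1, which codes for an RNA-binding protein, and CG5174. Their log2 fold changes were -0.17 ± 0.14, -0.08 ± 0.16 and 0.31 ± 0.12 (edgeR adjusted p = 0.582, 0.872 and 0.173), and that of Dp1 was 0.05 without male replicate 2. On the GstE10 side 18 annotated protein-coding genes were not tested. Genes with too few counts and genes with no identifier in the count tables were not told apart there. The nearest tested there were the immune peptide genes BomS6 and BomBc2, both under 1 CPM in every library, and pen-2, which codes for a subunit of gamma-secretase. pen-2 had 7.5 ± 1.74 CPM in female and 8.91 ± 2.21 CPM in male libraries (SD, n = 3 each), with log2 -0.25 ± 0.24 (edgeR adjusted p = 0.665). BomS6 had 14, 0 and 2 counts in females, against 28, 21 and 36 counts in males, with log2 -1.98 ± 1.05 (edgeR adjusted p = 0.329). BomBc2 had 8, 0 and 5 counts in females, against 9, 16 and 17 counts in males, with log2 -1.31 ± 1.05 (edgeR adjusted p = 0.567). Both fitted values were more negative than that of any called member, with wide errors. BomS6 reached the filter level in 3 male libraries and 1 female library, and BomBc2 in 2 male libraries and 1 female library. Their place among the tested genes thus rests mainly on the male libraries, which favours a lower female value. BomBc2 and pen-2 overlap genes on the opposite strand. Whether the difference of a member is larger than that of a neighbour was not tested.

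Levels between members are compared as CPM per kilobase of exon, to allow for transcript length. In females the order was GstE3 at 354 ± 41.6, GstE9 at 268 ± 47.1, GstE6 at 236 ± 45.1, GstE7 at 92.6 ± 10, GstE1 at 88.5 ± 10.7, GstE8 at 83.7 ± 15.2 and GstE5 at 55.7 ± 6.36 CPM per kilobase (SD, n = 3). The ranges of GstE9 and GstE6 overlapped between libraries, but GstE9 lay above GstE6 within every female library. Those of GstE7, GstE1 and GstE8 overlapped as well. In males the order was GstE3 at 637 ± 65.9, GstE6 at 503 ± 4.62, GstE9 at 494 ± 27, GstE8 at 207 ± 23.6, GstE7 at 206 ± 41.1, GstE1 at 115 ± 14.9 and GstE5 at 93.6 ± 6.86 CPM per kilobase (SD, n = 3). There GstE6 overlapped GstE9 and GstE8 overlapped GstE7, and GstE1 lay below both GstE7 and GstE8 in every male library. GstE2, GstE4 and GstE10 had means of at most 0.409 CPM per kilobase in females and 2.79 in males.

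All members together took 0.0845%, 0.1% and 0.0895% of the counts in female replicates 1 to 3, against 0.185%, 0.174% and 0.193% in male replicates 1 to 3. The mean was 0.0914% ± 0.00804 in female and 0.184% ± 0.00961 in male libraries (SD, n = 3 each), given as a description with no test. Female replicate 2 and male replicate 3, the libraries with the lowest muscle marker sums, had the highest share of their sex. Female replicate 2 was the highest female library for all 7 abundant members. The part of muscle content in these levels was not tested. With both libraries left out, a choice made after the data were seen, the female minus male difference in share was -0.0925 percentage points. It was -0.0926 with all 6 libraries, -0.097 without female replicate 2 and -0.088 without male replicate 3. Leaving out the highest library of each sex lowers both means, so the near-equal difference says nothing about muscle content.

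**Figure D3:**
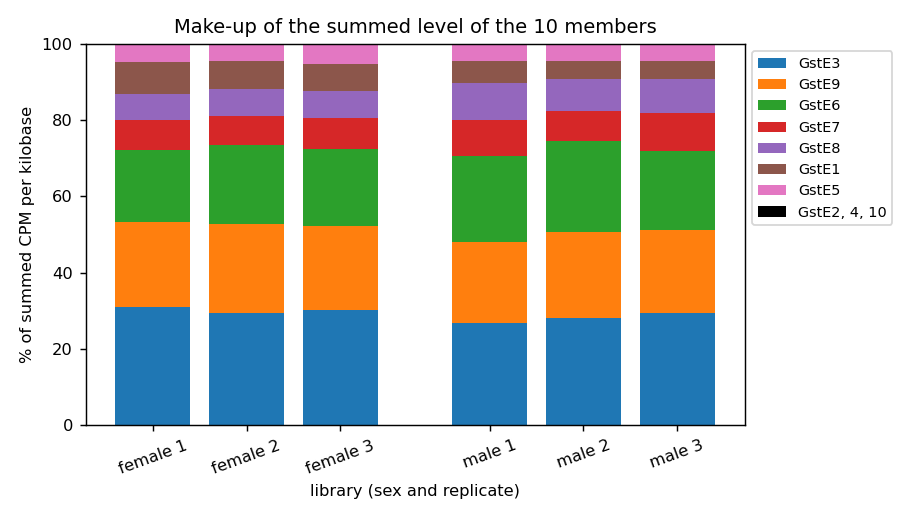
Share of each member in the summed CPM per kilobase of the 10 members, in percent, for each library. GstE3, GstE9 and GstE6 make up most of each bar in both sexes, and the GstE1 segment is thicker in the female bars (6.95% to 8.47%) than in the male bars (4.77% to 5.74%).

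GstE3, GstE9 and GstE6 made up most of the summed level in both sexes. GstE3 held 30.1% ± 0.823 of the summed level per length in females and 28.1% ± 1.39 in males, and GstE9 held 22.6% ± 0.719 in female and 21.9% ± 0.596 in male libraries (SD, n = 3 each). GstE6 held 19.9% ± 1.01 in female and 22.3% ± 1.6 in male libraries (SD, n = 3 each), and the ranges overlapped. GstE8 held 7.07% ± 0.267 in females and 9.13% ± 0.674 in males, and no female library reached the male range. GstE1 held 7.54% ± 0.811 in females and 5.09% ± 0.556 in males, with every female library above the male range. These shares are descriptions and sum to a fixed total, so a rise of one member's share lowers the others.

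Ratios within a library do not depend on library scaling. Each of the 6 called members was set against GstE1, a member chosen after its values were seen. GstE1 was the only abundant member not called and had the smallest fold change, which favours lower ratios in females. The ratio of GstE8 to GstE1 counts was 1.09, 1.38 and 1.37 in female replicates 1 to 3, against 2.32, 2.42 and 2.53 in male replicates 1 to 3. The ratio of GstE6 to GstE1 was 2.01, 2.61 and 2.61 in females, against 3.54, 4.52 and 3.91 in males. Female and male libraries did not overlap for 5 of the 6 ratios (exact two-sided permutation p = 0.1 each, the smallest that 3 against 3 allows, adjusted p = 0.12 over 6 ratios). GstE5 over GstE1 overlapped, with a mean of 0.563 ± 0.0988 in female and 0.723 ± 0.0623 in male libraries (SD, n = 3 each, exact permutation p = 0.2, adjusted 0.2). The design cannot reach an exact p under 0.05, so unequal change among members was not established by this test.

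**Figure D4:**
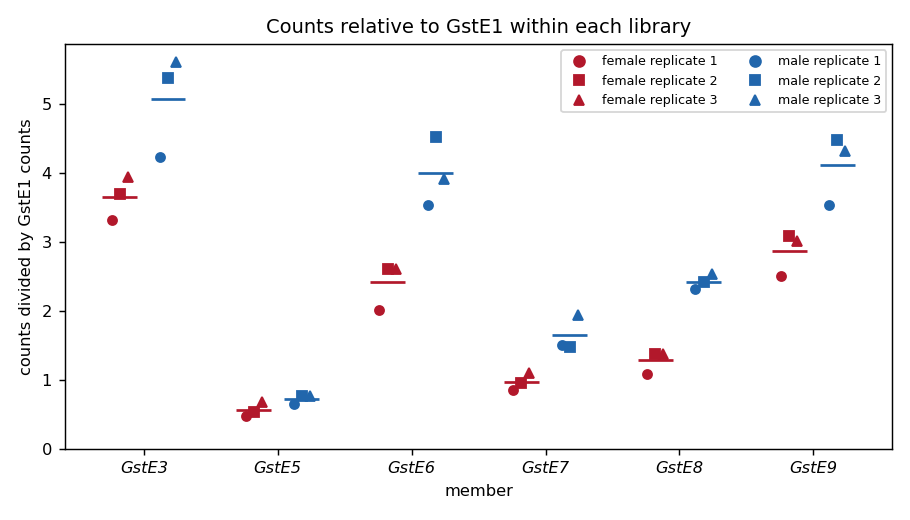
Counts of each called member divided by GstE1 counts in the same library; points are libraries and short lines are means of 3. For GstE3, GstE6, GstE7, GstE8 and GstE9 every female point lies below every male point, and for GstE5 the ranges overlap.

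Deviations of the libraries from the mean of their sex tended to go together among the members, with both sexes in a single correlation. Over the 21 pairs of the 7 abundant members, the correlation of deviations from the sex mean in log2 CPM was 0.29 to 0.92, with a median of 0.72. These values describe 6 libraries, and all members share the library, its scaling factor and any reads split between paralogs. GstE6 and GstE9 had the highest value, 0.92, and GstE1 and GstE5 the lowest, 0.29. In males GstE6 was nearly flat, at 382, 376 and 375 CPM, where GstE9 had 381, 373 and 413 CPM. The value of 0.92 thus rests mainly on the female libraries. Female replicate 2 was the highest female library for all 7 members, whereas male replicate 3 was the highest male library for 4. A correlation for each sex alone was not computed.

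Genes whose profile over the 6 libraries was most like the mean of the 6 called members were ranked by Pearson's r among 5619 other genes of at least 10 CPM. The 5 highest were Cyp6d2, a cytochrome P450 gene, Rpe, of the pentose phosphate pathway, GstD1, Ser8, a serine protease gene, and GstD5, with r of 0.996 to 0.998. Of those genes, 5.96% had r above 0.9. The sex difference was not removed from the profiles, and the 6 members were those called lower in females. Genes lower in females therefore rank high by this measure, and shared regulation was not tested. Cyp6d2 had 13.3, 19.4 and 14.2 CPM in females, against 51.5, 42.3 and 61.5 CPM in males. GstD1, the most abundant Delta class gene, had 444, 634 and 533 CPM in females, against 1078, 1004 and 1172 CPM in males. Cyp6d2 and Rpe overlap nsr and Corin on the opposite strand.

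**Figure D5:**
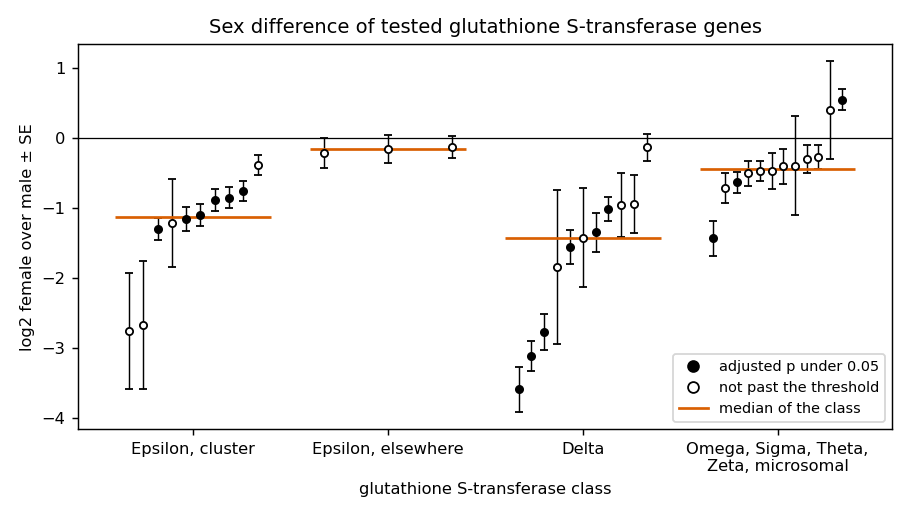
Log2 fold change, female over male, with its standard error for each tested glutathione S-transferase gene by class; filled points passed an adjusted p under 0.05 and orange lines are medians of the tested genes. The medians are -1.12 for the Epsilon cluster, -0.15 for Epsilon genes elsewhere, -1.42 for Delta and -0.43 for the other classes, and the cluster, Delta and the other classes include 3, 2 and 1 genes that met the filter in the male libraries alone.

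The Epsilon class has 4 more genes outside the cluster, and none of the 3 tested was called. GstE12 was the most abundant, with 355 ± 63.9 CPM in female and 386 ± 26.9 CPM in male libraries (SD, n = 3 each), with log2 -0.12 ± 0.16 (edgeR adjusted p = 0.771). GstE11 had log2 -0.21 ± 0.21 and GstE13 log2 -0.15 ± 0.20 (edgeR adjusted p = 0.679 and 0.773). GstE14, whose product acts in the larva in ecdysteroid synthesis, had 0 counts in all libraries. At an unadjusted p under 0.05 edgeR also found 0 of the 3, and DESeq2 and limma-voom called 0. GstE12 and GstE13 overlap genes on the opposite strand. Whether these genes and the cluster differ in their sex difference was not tested.

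The Delta class, the other large insect class, had 6 of 11 tested genes lower in females and 0 higher. Over all genes tested 5.53% were lower and 3.87% higher. GstD8, GstD2, GstD5 and GstD9 had the smallest p, with log2 -3.11 ± 0.21, -3.59 ± 0.32, -2.77 ± 0.26 and -1.55 ± 0.24. Of 12 genes of the Omega, Sigma, Theta, Zeta and microsomal classes, GstS1 and GstO2 were lower in females and GstO3 was higher. GstS1, a Sigma class gene whose product conjugates lipid aldehydes, had 76.3, 64 and 51.7 CPM in females, against 244, 146 and 127 CPM in males (log2 -1.43 ± 0.25, edgeR adjusted p = 0.00553). The call of GstO2 (log2 -0.63 ± 0.15), which overlaps se on the opposite strand, did not hold when female replicates 1 or 3 or male replicate 1 were left out (edgeR, adjusted p = 0.131, 0.102 and 0.066). GstO3 (log2 0.55 ± 0.15) kept its call without male replicate 3 and lost it without any other library (edgeR adjusted p = 0.0626 to 0.176) and with no scaling beyond the library total (0.0586). The cluster held 26.7% to 27.5% of the summed CPM of the 37 glutathione S-transferase genes in females and 28.7% to 33.2% in males.

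Genes that supply glutathione and its reducing power differed in part. Glutathione is made from cysteine, and Cth, which codes for cystathionine gamma-lyase, an enzyme that makes cysteine, was the only called gene of 5 tested for synthesis and turnover. It had 112, 111 and 85.4 CPM in females, against 245, 232 and 205 CPM in males (log2 -1.15 ± 0.15, edgeR adjusted p = 0.000919). Gclc and Gclm, which code for the subunits of the rate-limiting ligase of glutathione synthesis, had log2 -0.23 ± 0.17 and 0.14 ± 0.15 and did not pass (edgeR adjusted p = 0.516 and 0.715). Of 6 genes tested that make NADPH or use it to reduce glutathione, 5 were lower in females, Men-b, Idh, Men, Pgd and Zw. Over all genes tested 5.53% were lower, and this list was chosen with earlier results of these data known. Men, a malic enzyme gene, had 204, 229 and 242 CPM in females, against 797, 651 and 468 CPM in males (log2 -1.51 ± 0.20). Idh and Pgd, which code for dehydrogenases that make NADPH, had log2 -1.27 ± 0.17 and -1.07 ± 0.16. Pgd, Zw and Trxr1 overlap other genes on the opposite strand. Trxr1, whose thioredoxin reductase keeps glutathione reduced in flies, did not pass (log2 -0.31 ± 0.15, edgeR adjusted p = 0.301).

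Regulators and later steps of the pathway gave mixed calls. CncC, encoded by cnc, is the fly Nrf2 factor that switches on detoxification genes, with Keap1 as its inhibitor and maf-S as its partner. None of these 3 genes was called by edgeR, DESeq2 or limma-voom, and cnc overlaps other genes on the opposite strand. Their log2 fold changes were -0.17 ± 0.14 for cnc, 0.19 ± 0.14 for Keap1 and 0.45 ± 0.16 for maf-S (edgeR adjusted p = 0.58, 0.522 and 0.124). At an unadjusted p under 0.05 edgeR found maf-S alone, which was called higher in females without male replicate 3 (edgeR adjusted p = 0.0283). Of 3 genes for exporters of conjugates, MRP was lower in females, at 465, 477 and 442 CPM in females, against 1216, 1136 and 987 CPM in males (log2 -1.27 ± 0.15, edgeR adjusted p = 0.000477). Of 4 genes that clear reactive aldehydes by other routes, Akr1B and Aldh were lower in females, with log2 -1.98 ± 0.17 and -0.79 ± 0.18. The call of Aldh did not hold without female replicates 1 or 3 or male replicates 1 or 2 (edgeR adjusted p = 0.103, 0.0996, 0.061 and 0.0599). Activity of the CncC protein was not measured.

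Markers of neighbouring tissues and other cell types moved in part with sex. The 6 enteroendocrine markers summed to 307 to 353 CPM in females and 414 to 464 CPM in males, with 2 of 6, Tk and AstA, lower in females. Both calls held without male replicate 3 and were lost without any other library (edgeR adjusted p = 0.0641 to 0.157), and AstA did not pass in limma-voom (adjusted p = 0.0512). The 7 Malpighian tubule markers summed to 31.2 to 73.4 CPM in females and 60.2 to 92.2 CPM in males, and none of 6 tested was called by edgeR, DESeq2 or limma-voom (2 at an unadjusted edgeR p under 0.05). Of the 6, 5 had a negative log2 value. The 2 were Alp4 and Irk3, which overlap genes on the opposite strand. Alp4 had 60.1, 32.8 and 26.3 CPM in females, against 50.8, 71.6 and 78.6 CPM in males (edgeR adjusted p = 0.198). Irk3 had 1.82, 1.67 and 1.43 CPM in females, against 2.86, 2.53 and 3.36 CPM in males (edgeR adjusted p = 0.174). Uro, another tubule gene, was at 0 in all libraries but male replicate 3, with 0.104 CPM there. The fat body markers summed to 7.54 to 25.4 CPM in females and 12.2 to 18.7 CPM in males. Fbp1 was at 0 in all libraries, whereas apolpp had 24.9, 7.06 and 6.45 CPM in females, against 5.62, 17.3 and 15.1 CPM in males. The yolk protein gene Yp1 stood at 145, 24.9 and 23.2 CPM in females, against 0.0963, 4.72 and 0.052 CPM in males. Its log2 value was 5.32 ± 1.86 (edgeR adjusted p = 0.219, unadjusted p = 0.0435). DESeq2 called Yp1, and edgeR and limma-voom did not. The testis and accessory gland list was at 0 in all female libraries and reached 6.01 CPM in male replicate 3. Of the stem cell and enteroblast markers, esg and Dl had no matching identifier and were not used. The part of these cell types in the levels of the members was not tested.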

How the data were processed

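Poly(A) RNA of 3 female and 3 male midgut pools was sequenced as strand-marked paired reads of 100 bases from 500 ng of total RNA, per the labels' protocols. The deposited values are raw whole-number read counts for each gene, made by the authors with TopHat2 2.0.11 and HTSeq on dm3, per the submitters' processing notes. Not given in the sources used here are the strand setting and annotation release. No column went unused.

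The members and lists were chosen with earlier results of these data known. Identifiers were given current symbols (15002 of 15682 identifiers matched), and lengths and overlaps from Ensembl BDGP6 by identifier. All genes were fitted with edgeR 4.0.16 in R 4.3.3 (filterByExpr with minimum count 10 and total 15, TMM, quasi-likelihood test on sex). CPM are counts over TMM-scaled library totals. SE is the size of the log2 value over the square root of F, so it restates the p-value. For profiles, 0.5 CPM was added before log2. Named genes are the members, up to 4 called genes per pathway list with the smallest p (otherwise the gene with the smallest p), the 3 nearest tested genes on each side, and the 5 most similar profiles. Other genes, such as GstE12, GstE13, GstE14, Gclc, Gclm, Zw, Trxr1, cnc, Keap1, CR43687, CR43688 and markers, were named after their values were seen. Alternatives were RLE factors, no scaling, other filters, DESeq2 1.42.0, limma 3.58.1 with voom, a replicate block and leaving out libraries. No library was counted more than once in n, as the counts of same-sex libraries differed (chi-square over degrees of freedom 29.8 or more). The steps were tested on simulated data.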

Additional observations from a re-analysis of the deposited data

How the results depend on the processing

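The number of members lower in females was 6 with all libraries and 6 to 8 over the 14 alternatives, with 8 in DESeq2. Counts above 6 came from GstE2 and GstE4 only. In the main fit these met the low-count filter in the male libraries but not in the female libraries alone, which favours a lower female value. The number higher was 0 in each, and GstE3 and GstE5 to GstE9 were called in all 14, with adjusted p of at most 0.0461. Of 137 member values under alternatives, 131 kept their direction and side of the threshold and 6 passed it newly. These were GstE2 with no scaling (adjusted p = 0.0497), limma-voom (0.0494) and DESeq2 and without female replicates 2 or 3, and GstE4 in DESeq2. The summed share, female minus male, was -0.0976 to -0.088 percentage points when a library was left out. Leaving out female 2 and male 3 together was chosen after seeing the data, and it moved GstE4 from log2 -2.67 to -1.62.

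Nothing in the labels says that a replicate number marks a shared culture or day, so the numbers were not taken as pairs. Same-numbered replicates had r of deviations of -0.10, -0.28 and -0.14, which with 3 libraries per sex cannot settle whether they were paired. With the replicate block 6 members were lower in females. GstO2, GstO3, Zw and Tk did not pass with it (adjusted p = 0.0699, 0.0756, 0.052 and 0.117). Over the other glutathione pathway lists, the number lower was 17, and 14 to 19 over the alternatives. The number higher was 1 with all libraries, 0 with no scaling and with the replicate block, and 0 to 3 without a library. Dp1 ranged from -0.16 to 0.05 when a library was left out, reversing without male replicate 2; the cause was not tested. Over all genes, 494 were lower and 346 higher in females. The number higher was 552 in DESeq2, 171 without female replicate 1, 219 without female replicate 3 and 164 without male replicate 2. The 3 sparse members were not called in the main fit and gave no value under the filter of at least 5 CPM in 3 libraries.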
